A study of Homo sapiens with 4 samples.

Results

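The FOXO transcription factors and a set of their known target genes were examined in human breast cancer cells in which the m6A reader YTHDF3 was targeted. The set was a list of 10 gene symbols: the factors FOXO1, FOXO3 and FOXO4, and the targets CCNG2, BCL6, TXNIP, PDK4, IRS2, KLF6 and KLF4. Probe sets carrying these symbols in the platform annotation measured 9 of the 10, out of 14884 genes named on the array, and PDK4 had no named probe set and was not measured here. All 9 passed the filter on dim signals, a mean over the arrays of at least 2.54 on the log2 scale, the 30th percentile of all probe sets. The members were selected on their symbols with the log2 differences between these groups in view, and no threshold was set on those values. Their differences, intervals and calls are therefore given as a description, and nothing is supported with them.

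The study compared cells given a lentiviral short hairpin RNA against YTHDF3 (shYTHDF3, 2 arrays) with cells given a control hairpin (shControl, 2 arrays). Both groups were grown from MDA-MB-231Br, a brain-tropic variant of the triple-negative MDA-MB-231 line (the name used in the sample titles), and both were selected with puromycin, so transduction and selection are shared by the controls. The labels give no hairpin sequence and do not say how many hairpins were used, whether a line was 1 clone, or whether the arrays of a group came from separate cultures. Intervals and p-values thus cover the spread between these 4 samples alone, and that spread may be technical. Total RNA was hybridised to Affymetrix arrays, and expression is on the log2 scale as the authors normalised it, so a difference of 1 is a doubling.

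FOXO proteins are forkhead transcription factors that bind DNA and switch on genes for cell cycle arrest, stress resistance, metabolism and cell death. Insulin and growth factors act through PI3K and AKT to phosphorylate them, which holds them in the cytoplasm bound to 14-3-3 proteins; when that signal is low they enter the nucleus. Their activity is thus set largely at the protein level, which arrays do not measure. FOXO3 has been reported elsewhere as a target of YTHDF3, a cytoplasmic protein that binds N6-methyladenosine on RNA, and the comparison sets its transcript beside the direction of FOXO target genes.

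Across the 12755 genes tested, the arrays of a group correlated at 0.992 in shYTHDF3 and 0.992 in shControl, and arrays of different groups at 0.986 to 0.987. Probe sets named YTHDF1, YTHDF2 or YTHDF3 numbered 0, so the level of the targeted gene was not analysed here and the labels have no check from it. Of the genes fixed as marks of the line, VIM, CD44, EGFR, AXL and FN1 lay above the array medians of 3.20 to 3.22 on all 4 arrays, and CAV1 was not measured here. FN1, fibronectin, was not steady: it fell to 6.09 and 5.68 in the shYTHDF3 arrays, against 7.37 and 7.40 in the shControl arrays (log2 difference -1.50, adjusted p = 0.012 from limma). The hormone receptor genes ESR1 and PGR, which the parent line is known to lack, ran from 2.57 to 2.94 and lay below the medians. The epithelial genes EPCAM and KRT19 and the luminal gene GATA3 were also fixed as low in the line but lay above the medians. EPCAM ran from 6.63 to 6.77, KRT19 from 6.37 to 7.07 and GATA3 from 4.44 to 4.77. ERBB3 lay on both sides of the medians, at 2.75 to 3.34, and CDH1 was not measured here. The leukocyte and endothelial markers CD14, PECAM1 and VWF ran from 2.29 to 3.08, and the lysosomal marker CD68, which is not restricted to leukocytes, lay above the medians. In such bulk samples fewer cells of a type and less RNA per cell cannot be told apart.

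The 9 measured genes split by direction. The 3 factors all averaged higher in shYTHDF3 arrays, while 4 of the 6 measured targets averaged lower and IRS2 and TXNIP averaged higher. With limma, a linear model that shares the estimate of spread across genes, 0 of the 9 passed an adjusted p of 0.05 over all genes tested, where 0.753% of all genes did. By direction, 0.0862% of all genes were called higher and 0.666% lower. With p unadjusted and under 0.05 there were 5 of 9, 1 higher and 4 lower, against 14.7% of all genes, 6.24% higher and 8.48% lower. The adjusted p-values of the 9 ran from 0.068 for CCNG2 to 0.84 for TXNIP. With an intensity trend in limma's variance model CCNG2 and BCL6 passed, at adjusted p-values of 0.033 and 0.029, and with a stricter filter on dim signals CCNG2 passed at 0.045. Over all 13 alternatives limma's adjusted p ran from 0.033 to 0.41 for CCNG2 and from 0.029 to 0.41 for BCL6. The arrays of the groups did not overlap for 7 of the 9 genes, 3 higher and 4 lower in shYTHDF3, where 45.5% of all genes tested did not overlap, 22.6% higher and 22.8% lower. Differences above 0 numbered 5 and below 0 numbered 4, against 50.7% and 49.2% of all genes. The median log2 difference (shYTHDF3 minus shControl throughout) was 0.14 over the 9 genes, 0.30 over the 3 factors and -0.42 over the 6 targets, against 0.00 over all genes tested.

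**Figure D1:**
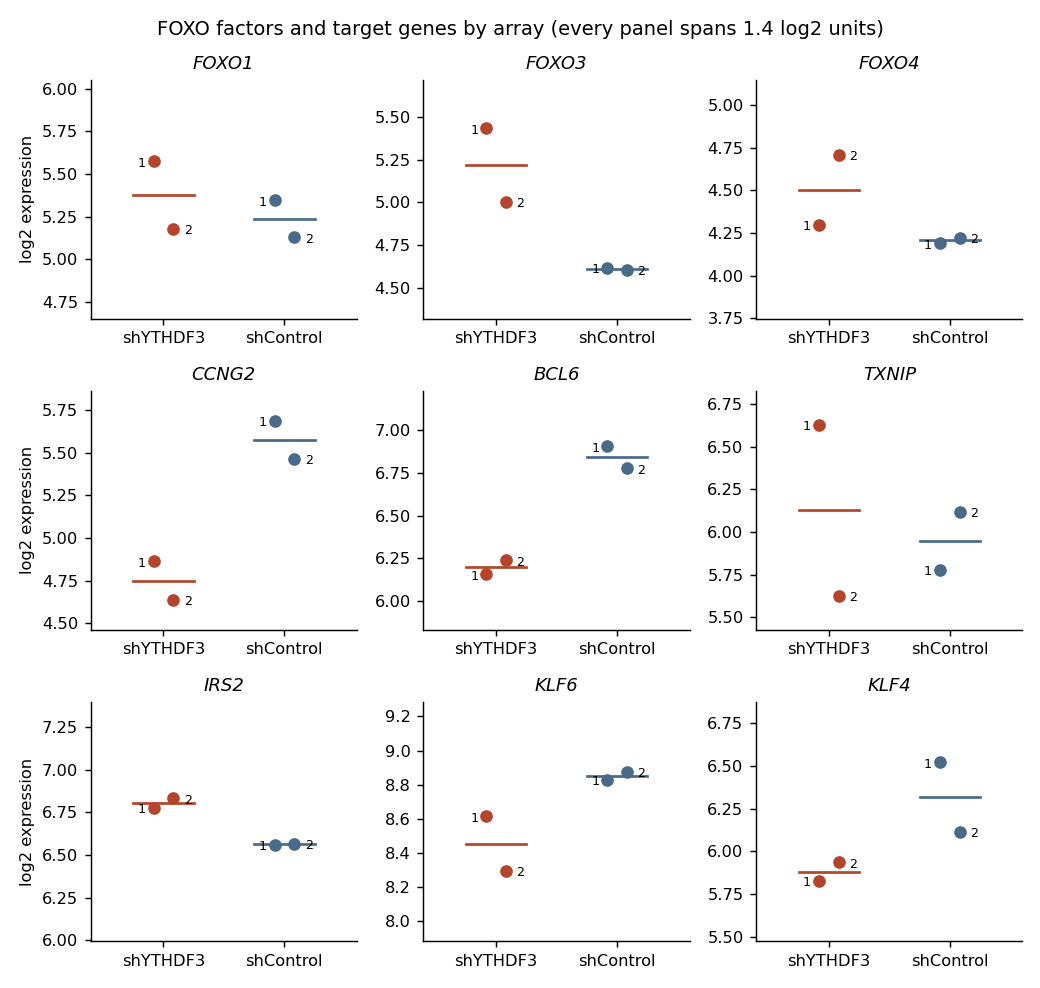
Log2 expression of the 9 measured genes on each array, shYTHDF3 arrays left and shControl arrays right. Points carry the replicate number, the bars are group means of 2 arrays, and every panel spans the same range. FOXO1 and TXNIP are the genes whose groups overlap.

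FOXO3, the factor reported elsewhere as a YTHDF3 target, stood at 5.43 and 5.00 in the shYTHDF3 arrays, against 4.62 and 4.60 in the shControl arrays. Both shYTHDF3 arrays lay above both controls, and the controls lay within 0.01 of each other. The group means were 5.22 ± 0.30 and 4.61 ± 0.01 (SD, n = 2 each). The log2 difference was 0.61 (SE 0.17, 95% interval 0.21 to 1.00), or 1.52-fold. That interval is not adjusted over genes, and FOXO3 did not pass, at an adjusted p of 0.17 from limma. The gap between the shYTHDF3 arrays was 0.43, smaller than that difference. Without shYTHDF3 replicate 1 the difference was 0.39, and without shYTHDF3 replicate 2 it was 0.82.

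These FOXO3 values come from probe set 17011450, the brighter of 2 that the annotation names FOXO3. The other, 16831905, stood at 4.37 and 4.32 in the shYTHDF3 arrays, against 4.27 and 4.15 in the shControl arrays. Its groups did not overlap, but its log2 difference was 0.13, and averaging both probe sets gave 0.37. The 8 named probe sets nearest in number to 17011450 all belong to genes on chromosome 6, where FOXO3 lies. All 8 nearest to 16831905 belong to genes on chromosome 17, where RefSeq places FOXO3B, a close copy of FOXO3. The annotation used here names neither probe set FOXO3B, and whether either one also detects RNA of that copy was not tested.

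**Figure D2:**
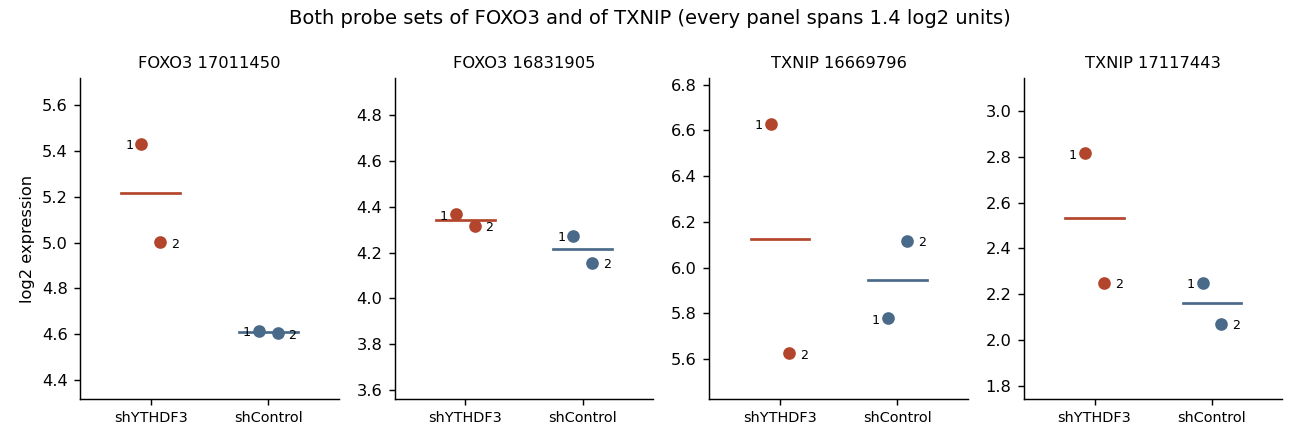
Log2 expression of both probe sets of FOXO3 and both of TXNIP on each array, shYTHDF3 left and shControl right, with the probe set used in the comparison first for each gene. Points carry the replicate number and bars are group means. The FOXO3 difference of 0.61 is in the first panel, against 0.13 in the panel beside it.

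FOXO4, a factor of the same family encoded on the X chromosome, stood at 4.30 and 4.71 in the shYTHDF3 arrays, against 4.19 and 4.22 in the shControl arrays. The groups did not overlap, although the nearest arrays were only 0.08 apart and the shYTHDF3 arrays themselves differed by 0.41. Its log2 difference was 0.30 (SE 0.16), which became 0.09 once shYTHDF3 replicate 2 was left out and 0.50 once shYTHDF3 replicate 1 was.

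FOXO1, the family member best known for control of glucose production in liver, stood at 5.57 and 5.18 in the shYTHDF3 arrays, against 5.34 and 5.13 in the shControl arrays. The groups overlapped, and the log2 difference of 0.14 (SE 0.17, 95% interval -0.26 to 0.54) was smaller than the gap between arrays of either group. FOXO1 was -0.058 without shYTHDF3 replicate 1. The array with the highest value was not the same for all factors: FOXO1 and FOXO3 were highest in shYTHDF3 replicate 1 and FOXO4 in shYTHDF3 replicate 2.

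By the distance between log2 values centred on each gene's mean, over the 4 arrays, the 5 tested genes most like FOXO3 were HPSE2, ARHGAP31, UBR7, MBOAT1 and EPHB4. Their distances ran from 0.053 for HPSE2 to 0.097 for EPHB4, and their log2 differences from 0.52 to 0.65. With 4 arrays many profiles are alike, so this is a description of these arrays only.

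Among the targets, CCNG2 had the largest difference. It encodes cyclin G2, an unconventional cyclin linked to cell cycle arrest. Its values were 4.86 and 4.64 in the shYTHDF3 arrays, against 5.69 and 5.46 in the shControl arrays. Every shYTHDF3 array was lower than every control by at least 0.60, while the arrays of a group differed by 0.23 and 0.22. The group means were 4.75 ± 0.16 and 5.57 ± 0.16 (SD, n = 2 each), a log2 difference of -0.82 (SE 0.15, 95% interval -1.18 to -0.47) or 1.77-fold. With 1 array left out it ran from -0.94 to -0.71. CCNG1, which encodes the related cyclin G1, a p53 target, differed by -0.04 (SE 0.16).

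BCL6, a transcriptional repressor that FOXO factors induce and that itself represses cyclin D2, stood at 6.16 and 6.24 in the shYTHDF3 arrays, against 6.90 and 6.78 in the shControl arrays. The groups were at least 0.54 apart and the arrays within each differed by 0.08 and 0.13. The log2 difference was -0.64 (SE 0.13, 95% interval -0.95 to -0.34), or 1.56-fold, and ran from -0.71 to -0.58 with 1 array left out. CCND2, the cyclin D2 gene, differed by 0.03 (SE 0.14).

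The Krüppel-like factor genes KLF6 and KLF4 encode zinc finger transcription factors that restrain proliferation in many cells and are also induced quickly by stress and serum. KLF6 stood at 8.61 and 8.30 in the shYTHDF3 arrays, against 8.83 and 8.87 in the shControl arrays. Both shYTHDF3 arrays were lower, by 0.21 at the closest, and the log2 difference was -0.40 (SE 0.15). KLF4 stood at 5.83 and 5.93 in the shYTHDF3 arrays, against 6.52 and 6.11 in the shControl arrays. Here the spread lay in the controls, which differed by 0.41, and the log2 difference of -0.44 (SE 0.17) was -0.23 without shControl replicate 1. KLF6 was -0.24 without shYTHDF3 replicate 2.

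Targets that averaged higher were IRS2 and TXNIP. IRS2 encodes an adaptor of the insulin receptor, which FOXO factors induce and which feeds back on the PI3K pathway. It stood at 6.77 and 6.83 in the shYTHDF3 arrays, against 6.56 and 6.57 in the shControl arrays. The difference was small but even: each shYTHDF3 array exceeded each control by 0.21 to 0.27, and the arrays of a group differed by 0.06 and 0.01. The log2 difference was 0.24 (SE 0.13, 95% interval -0.05 to 0.53), the SE being set mainly by the spread limma shares across genes. Its paralog IRS1 differed by 0.24 (SE 0.13), with values of 5.99 and 5.98 in shYTHDF3 and 5.77 and 5.72 in shControl arrays.

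TXNIP encodes thioredoxin-interacting protein, which curbs glucose uptake and binds thioredoxin. It was the least reproducible gene of the set, at 6.63 and 5.63 in the shYTHDF3 arrays, against 5.78 and 6.12 in the shControl arrays. The shYTHDF3 arrays were the highest and the lowest of the 4 and differed by 1.00, against a log2 difference of 0.18 (SE 0.30, 95% interval -0.53 to 0.89). Leaving out shYTHDF3 replicate 1 turned it to -0.32, and leaving out shYTHDF3 replicate 2 gave 0.68. A second probe set, 17117443, was under the filter at 2.81 and 2.25 in the shYTHDF3 arrays, against 2.25 and 2.07 in the shControl arrays. There too shYTHDF3 replicate 1 was the highest array. Of the 8 named probe sets nearest in number to 17117443, 0 belong to genes on chromosome 1, where TXNIP lies. For the probe set used, 7 of 8 do. Whether 17117443 detects TXNIP RNA was not tested.

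**Figure D3:**
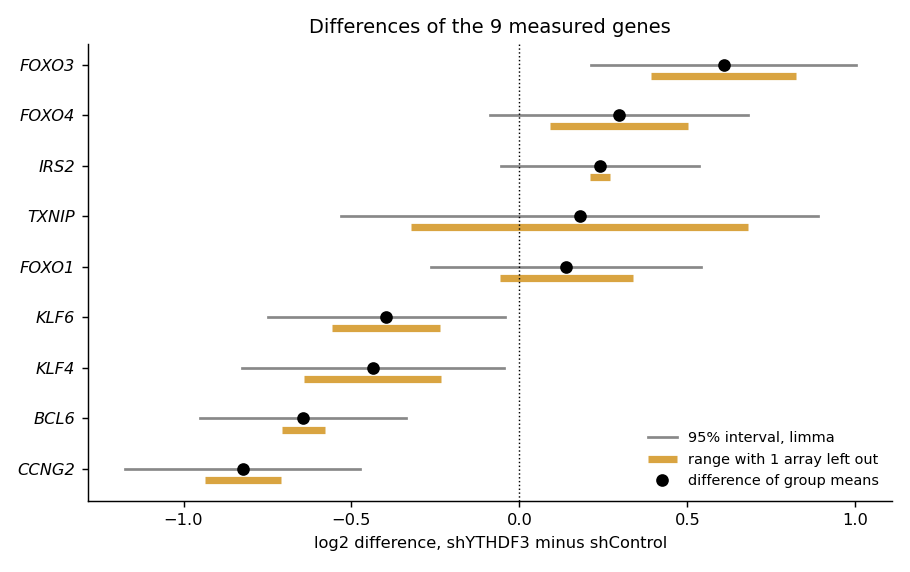
Log2 differences, shYTHDF3 minus shControl, of the 9 measured genes, with limma's 95% interval in grey and the range over fits that leave out 1 array in yellow. CCNG2, BCL6, KLF4 and KLF6 lie below 0 and FOXO3, FOXO4 and IRS2 above it in every such fit, while FOXO1 and TXNIP cross 0.

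The promoters of the genes were searched for letters that FOXO proteins are known to prefer: a forkhead core and an insulin response form of it, on both strands. The core was spelled TGTTTAC in the search. The insulin response form differs in its closing letters and was spelled TGTTTTG, and no match of one overlapped a match of the other in these windows. RefSeq windows (GRCh38.p14, 250 bases before to 50 after a gene's start) were found for all 10 genes, 15 windows in all because some genes have several starts. Of the 15 windows 3 held a match, against 8.07% of 35116 windows of all genes. The forkhead core alone was in 3.42% and the insulin response form in 4.92% of all windows. The matches were in TXNIP, with its first base at -124 from the gene's start, in IRS2, at -40, and in FOXO4, at 24 past the start. A match is a description of letters and not a site, and its absence says only that these letters are not in the window. The bases before the start are shown for TXNIP and IRS2, the targets that hold a match, and for CCNG2 and BCL6, the targets with the largest differences. Capitals mark the match, and CCNG2 and BCL6 have none.
TXNIP, chr1:145996580-145996829, minus strand: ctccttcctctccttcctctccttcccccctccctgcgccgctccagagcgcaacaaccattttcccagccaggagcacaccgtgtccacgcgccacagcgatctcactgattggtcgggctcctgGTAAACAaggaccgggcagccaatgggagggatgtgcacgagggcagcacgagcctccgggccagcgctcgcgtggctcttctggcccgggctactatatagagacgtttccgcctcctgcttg
IRS2, chr13:109786584-109786833, minus strand: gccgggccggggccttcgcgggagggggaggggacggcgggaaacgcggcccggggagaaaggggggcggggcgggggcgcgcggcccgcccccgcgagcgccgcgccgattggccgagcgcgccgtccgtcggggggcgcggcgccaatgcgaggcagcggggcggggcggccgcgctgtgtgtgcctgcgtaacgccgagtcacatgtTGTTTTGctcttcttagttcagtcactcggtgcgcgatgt
CCNG2, chr4:77156957-77157206, plus strand: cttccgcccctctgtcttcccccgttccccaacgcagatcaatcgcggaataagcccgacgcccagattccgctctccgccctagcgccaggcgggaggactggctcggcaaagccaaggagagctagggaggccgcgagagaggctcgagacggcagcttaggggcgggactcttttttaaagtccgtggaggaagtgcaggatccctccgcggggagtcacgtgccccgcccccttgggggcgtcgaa
BCL6, chr3:187745469-187745718, minus strand: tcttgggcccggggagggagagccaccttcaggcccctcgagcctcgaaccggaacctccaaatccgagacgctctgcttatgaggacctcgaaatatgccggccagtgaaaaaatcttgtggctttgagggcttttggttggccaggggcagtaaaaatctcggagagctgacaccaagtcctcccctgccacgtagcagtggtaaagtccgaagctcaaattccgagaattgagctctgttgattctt
No link between these letters and the differences was tested.

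The signalling genes upstream of the factors gave no call. Of 21 listed genes of the PI3K and AKT pathway 10 were tested, and 0 passed limma's adjusted threshold, while with p unadjusted and under 0.05 there were 2 higher and 1 lower, where 6.24% and 8.48% of all genes were. The adjusted background was 0.753% of all genes. PHLPP2, a phosphatase that removes an activating phosphate from AKT, stood at 6.30 and 6.10 in shYTHDF3 and 5.77 and 5.46 in shControl arrays, a log2 difference of 0.59 (SE 0.16). AKT1, the kinase itself, stood at 5.61 and 5.40 in shYTHDF3 and 5.08 and 4.95 in shControl arrays, a difference of 0.49 (SE 0.14). A dimmer AKT1 probe set gave 0.51. SGK1, a kinase that also phosphorylates FOXO3, differed by -0.30 (SE 0.13), and INSR, the insulin receptor gene and a FOXO target, by 0.39 (SE 0.18). The median of the 10 was 0.10, against 0.00 for all genes tested.

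Proteins that act on FOXO proteins were likewise without a call. Of 25 listed 12 were tested, and limma called 0, where 0.753% of all genes were called. With p unadjusted and under 0.05 there were also 0, where 14.7% of all genes passed, and the median was 0.09. SFN, a member of the 14-3-3 family, differed by 0.45 (SE 0.20). The acetyltransferase genes EP300 and CREBBP differed by 0.21 (SE 0.14) and 0.16 (SE 0.13). CHUK, a kinase of the NF-kB pathway, differed by 0.16 (SE 0.15).

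A wider list of FOXO targets, 45 genes, had 29 tested, of which 1 fell, 0 rose and 28 did not pass, where 0.666% of all genes were called lower. At an unadjusted p under 0.05 there were 3 higher and 2 lower, where 6.24% and 8.48% of all genes were. Differences above and below 0 numbered 14 and 15, and the median was -0.06. The list mixes genes that FOXO factors induce with genes they repress. CCND1, known to be repressed, was 1 of the 3 higher genes. These counts and this median thus do not give a direction of FOXO activity. The gene that fell was MAP1LC3B, which encodes the autophagosome protein LC3B. It stood at 3.88 and 4.26 in the shYTHDF3 arrays, against 5.27 and 5.32 in the shControl arrays, a log2 difference of -1.23 (SE 0.16, adjusted p = 0.024 from limma). Its adjusted p from limma was 0.37 without shControl replicate 1, 0.29 without shControl replicate 2 and 0.13 without shYTHDF3 replicate 1, with log2 differences of -1.25, -1.20 and -1.04; over the 13 alternatives it lay between 0.0083 and 0.37. A near-identical copy of this gene exists in the human genome, so its probe set may not be specific.

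Another autophagy gene, GABARAPL1, of the same protein family as LC3B, stood at 3.60 and 3.83 in the shYTHDF3 arrays, against 4.41 and 4.30 in the shControl arrays. Its groups did not overlap, and its difference of -0.63 (SE 0.14) did not pass. Of the 8 tested autophagy genes 6 had a difference below 0, where 49.2% of all genes did, and the median was -0.17. ATG12, which acts in autophagosome formation, differed by -0.29 (SE 0.13), and ULK2, a kinase that starts autophagy, by 0.28 (SE 0.16). Groups did not overlap for either gene, where 45.5% of all genes tested did not overlap. For ULK2 the nearest arrays of the groups were only 0.04 apart, and the control arrays differed by 0.30, more than the groups did.

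The remaining target classes gave no call from limma. With p unadjusted and under 0.05 there was 1 higher gene in each of the cell cycle, metabolic and oxidative stress classes and 0 in the cell death class, where 6.24% of all genes were higher. In the cell cycle class, 6 tested genes had a median of 0.04. CCND1, the cyclin D1 gene that FOXO factors are known to repress, stood at 9.28 and 9.11 in shYTHDF3 and 8.69 and 8.74 in shControl arrays, a difference of 0.49 (SE 0.13). RBL2, the pocket protein p130 induced by FOXO factors, differed by -0.27 (SE 0.16). In the metabolic and feedback class, 6 tested genes had a median of 0.10, and IGFBP1, an insulin-like growth factor binding protein and a classic FOXO1 target in liver, differed by 0.49 (SE 0.13). Its values were 7.56 and 7.47 in shYTHDF3 and 6.95 and 7.09 in shControl arrays.

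The 5 tested cell death targets had a median of -0.06. BCL2L11, which encodes the death-promoting protein BIM, differed by 0.29 (SE 0.16). BBC3 and PMAIP1, which encode PUMA and NOXA, differed by -0.26 (SE 0.19) and -0.29 (SE 0.14). The 4 tested oxidative stress targets had a median of 0.00. SESN1, sestrin 1, stood at 4.06 and 3.85 in shYTHDF3 and 3.35 and 3.67 in shControl arrays, a difference of 0.45 (SE 0.16), and CAT, catalase, differed by -0.15 (SE 0.13). In these classes direction differed from gene to gene.

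**Figure D4:**
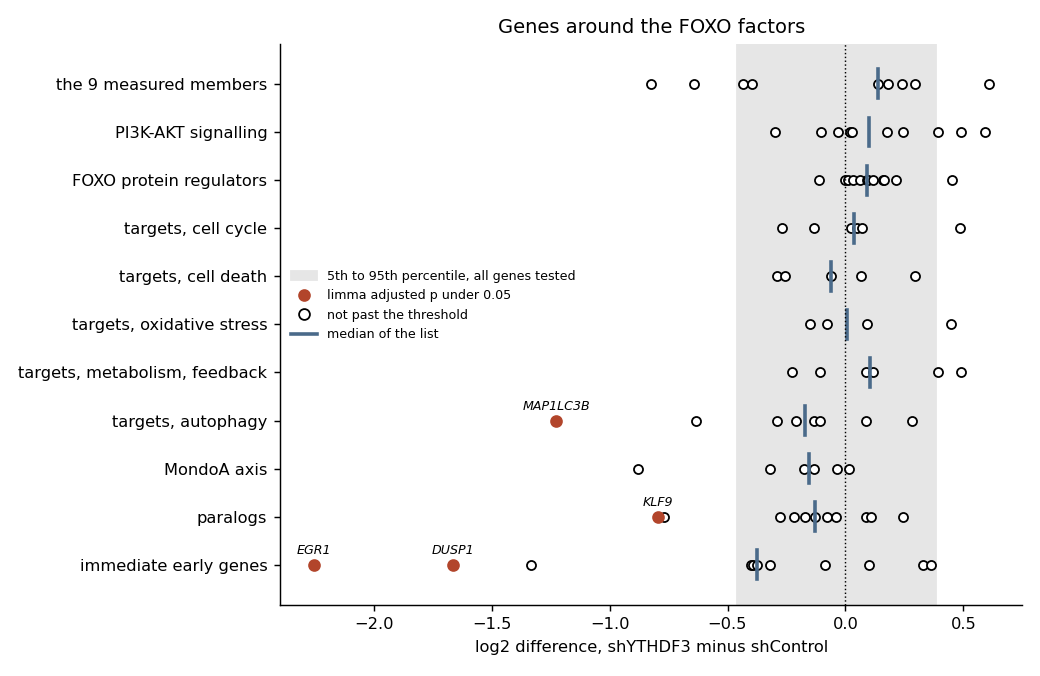
Log2 differences, shYTHDF3 minus shControl, of the 9 measured members and of the tested genes of each wider list, 1 point per gene with the list's median as a bar. Filled points passed limma's adjusted threshold, and the grey band runs from the 5th percentile (-0.46) to the 95th (0.38) of all genes tested. MAP1LC3B, KLF9, EGR1 and DUSP1 are the filled points.

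TXNIP is also controlled by the glucose-sensing factor MondoA (the MLXIP gene) with its partner MLX, so the genes of that axis are given beside it. All 6 were tested, limma called 0, where 0.753% of all genes were called, and the median was -0.16. With p unadjusted and under 0.05, 1 was lower, where 8.48% of all genes were. ARRDC4, a relative of TXNIP that MondoA also controls, stood at 4.46 and 4.34 in the shYTHDF3 arrays, against 4.93 and 4.51 in the shControl arrays, a difference of -0.32 (SE 0.17). ARRDC3, another arrestin-domain gene, stood at 6.59 and 6.56 in shYTHDF3 and 7.63 and 7.28 in shControl arrays, a difference of -0.88 (SE 0.15) that did not pass. MLXIP and MLX differed by -0.14 and -0.03. The part of this axis in the TXNIP values was not tested.

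Other Krüppel-like factor genes were compared with KLF4 and KLF6. Of 9 tested, 1 fell, 0 rose and 8 did not pass, where 0.666% of all genes were called lower; 7 of the 9 differences were below 0, where 49.2% of all genes were, and the median was -0.17. KLF9, a factor induced by glucocorticoid and thyroid hormones, fell to 3.83 and 3.84 in the shYTHDF3 arrays, against 4.66 and 4.60 in the shControl arrays, a log2 difference of -0.80 (SE 0.13, adjusted p = 0.046 from limma). That call was narrow: it was lost in 7 of 13 alternatives, at adjusted p-values between 0.051 and 0.37 from limma, among them every fit without 1 of the 4 arrays, and over all 13 the adjusted p ran from 0.030 to 0.37. KLF7 stood at 6.27 and 6.14 in shYTHDF3 and 7.02 and 6.92 in shControl arrays, a difference of -0.77 (SE 0.13) that did not pass. KLF12, KLF5, KLF3, KLF13 and KLF15 differed by -0.28, -0.22, -0.17, -0.13 and -0.08. KLF11 and KLF2 differed by 0.11 and 0.09. Of the other paralogs fixed for comparison, FOXO6, BCL6B, PDK1, PDK2 and PDK3 were not analysed here.

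KLF4 and KLF6 are also immediate early genes, which cells switch on within minutes of a stimulus, so that class is given beside them. Of 11 tested genes of the class EGR1 and DUSP1 fell, where 0.753% of all genes were called. With p unadjusted and under 0.05, 5 genes were lower and 1 was higher, where 8.48% and 6.24% of all genes were. EGR1 stood at 4.98 and 5.59 in the shYTHDF3 arrays, against 7.58 and 7.50 in the shControl arrays (log2 difference -2.25, SE 0.20), with a second probe set at -0.54. DUSP1, a phosphatase that inactivates MAP kinases, stood at 8.34 and 8.12 in the shYTHDF3 arrays, against 9.78 and 10.0 in the shControl arrays (log2 difference -1.66, SE 0.15). Without either control array limma called 0 of all genes tested, and both calls were lost, at adjusted p-values of 0.13 to 0.26, while the log2 differences were -2.22 and -2.29 for EGR1 and -1.78 and -1.55 for DUSP1. In those fits 1370 and 1392 of all genes had an unadjusted p under 0.05. Over all alternatives the adjusted p ran from 0.0003 to 0.26 for EGR1 and from 8.4e-05 to 0.16 for DUSP1. The other genes lower at an unadjusted p under 0.05 were ATF3, FOSL1 and EGR3, which did not pass. ATF3 differed by -1.33 (SE 0.27), with the shYTHDF3 arrays apart at 3.67 and 2.74. FOSL1 and EGR3 differed by -0.39 (SE 0.13) and -0.32 (SE 0.13). JUN, in contrast, differed by 0.33 (SE 0.14). Whether the KLF differences go with this class was not tested.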

How the data were processed

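Expression was measured on 4 Affymetrix arrays, 2 shYTHDF3 and 2 shControl, grouped by their titles. The deposited values are log2 expression per probe set, which the authors made with RMA, per the submitters' processing notes; no version or setting of RMA is named there. RMA removes array-wide shifts and compresses weak signals. Of 53617 probe sets 16098 had 1 symbol in the platform annotation, 0 had several and 37519 were unnamed; every one of the 16098 matched RefSeq by Entrez identifier. A gene was read from its brightest probe set by mean and tested if that mean was at or above 2.54, the 30th percentile over all probe sets, and 12755 genes were. The comparison used limma (version 3.58.1, R 4.3.3; lmFit, then eBayes) without covariates. Its 2-sided p-values were adjusted by Benjamini and Hochberg's method over the 12755 genes, at a threshold of 0.05. The code was checked on data simulated from limma's own variance model, which does not test the calls on these arrays. With 2 arrays against 2 an exact permutation cannot go below 0.333, so calls rest on limma's shared spread (2 residual and 5.30 prior degrees of freedom), and precision is limited by the number of arrays. The members and lists were chosen with earlier results of these data known. The text names every member, every wider list gene past the threshold, otherwise up to 4 genes of smallest p per list, the fixed paralogs and the 5 genes nearest FOXO3. CCND2, MLX, JUN, ATF3, FOSL1 and EGR3 were added after their values were seen. Alternatives were a filter (none or stricter), the mean of probe sets, other normalizations, other variance models, a replicate block and leaving out each array.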

Additional observations from a re-analysis of the deposited data

How the results depend on the processing

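Over 13 alternatives CCNG2, BCL6, KLF6, KLF4, FOXO3, FOXO4 and IRS2 kept their direction. The filters, the variance models and the replicate block leave a gene's log2 difference as it is, so they cannot test direction. Among the members, the mean of probe sets could change only FOXO3 and TXNIP. Direction was thus open to change mainly in the fits that leave out 1 array, and the 7 genes kept it there. FOXO1 ran from -0.058 to 0.34 and TXNIP from -0.32 to 0.68 with 1 array left out, each below 0 without shYTHDF3 replicate 1; the median of the members was then -0.32. The 96 genes called by limma among all tested became 167 with a filter at the 50th percentile, 375 when the prior variance followed intensity, 11 with the replicate block, and between 0 and 36 with 1 array left out. The count among the members, 0, was 1 with the stricter filter and 2 with that trend in the variance. The count in the wider lists, 4, was 8 with the trend, 0 with the replicate block and between 0 and 3 with 1 array left out. With the block the calls of MAP1LC3B, KLF9, EGR1 and DUSP1 were lost, at adjusted p-values from limma of 0.081 to 0.17. The cause of these shifts was not tested. By design, leaving out an array or adding the block lowers the residual degrees of freedom, and the filters change which genes are tested. The labels tie the replicate numbers to nothing shared, and the deviations of same-numbered arrays correlated at 0.04 across genes, so same-numbered arrays were not treated as pairs. The median of all genes moved by at most 0.01 on the log2 scale under the 3 other normalizations. Values near the filter of 2.54, such as the second TXNIP probe set, are too dim to give a fold.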
